A study of Mus musculus with 4 samples.

Results

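Muscle-secreted factors (myokines) and regulators of muscle mass were examined by RNA sequencing (RNA-seq) in cultured mouse myotubes. The set held 10 of the 53647 genes in the count tables, chosen by what their products do, with earlier results of these data known. These were Il15 and its receptor chain Il15ra, the macrophage growth factors Il34 and Csf1, and the growth regulators Mstn and Fst. The others were the metabolic hormones Gdf15 and Fgf21, and Fndc5 and Metrnl. Myoblasts from limb muscles of wild-type (WT) pups, 2 to 3 days old, were differentiated in horse serum for 48 h. In the EDA-A2 condition they then received recombinant EDA-A2 at 250 ng/mL for 24 h, and control myotubes did not. Ectodysplasin A2 (EDA-A2) is a ligand of the tumour necrosis factor family that binds the receptor EDA2R. RNA was taken 72 h after differentiation began, and there were 2 libraries per condition, 4 in all. What the control medium held, how many pups gave cells and whether the libraries came from separate cultures are not given in the sources used here, so p-values measure only the spread between these libraries, which may be technical. Cultured myotubes have no nerve, blood supply or load.

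Myokines act on muscle itself and on distant organs. IL-15 is carried to the cell surface by IL-15 receptor alpha and presented to cells bearing the beta and common gamma chains, CSF1 and IL-34 share the receptor CSF1R, and myostatin (Mstn) restrains muscle growth through activin type II receptors, which follistatin (Fst) prevents by binding it. GDF15 signals through GFRAL and RET in the hindbrain, FGF21 through FGF receptors with beta-klotho, FNDC5 is the precursor of irisin, and METRNL is a secreted factor related to meteorin. Here the question was whether a day of EDA-A2 changed the transcripts of these factors.

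The libraries held 29444155 to 29746863 counts on genes, so depth was nearly equal. The labelled cell type was seen in the markers: all 8 myotube markers passed the low-count filter, and their summed level was 660474 to 692542 normalized counts in control and 502382 to 502399 in EDA-A2 myotubes. Normalized counts are counts scaled by each library's effective size. All 8 markers had a negative log2 fold change, from -0.57 for Myh3 to -0.01 for Mymk, whose conditions overlapped. Their median was -0.31, against -0.002 over all genes tested. Of the 8, 3 passed the test as lower (Myh3, Myh8 and Acta1, muscle structural genes), where 2.13% of all genes tested were called lower. These 3 were also the most abundant, so the sum mostly reflects them. Their values stayed negative with any 1 library left out, but the 3 calls were lost without control replicate 1 (edgeR adjusted p = 0.256, 0.288 and 0.288) and without control replicate 2 (0.183, 0.22 and 0.19), and that of Myh8 also without EDA-A2 replicate 2 (0.107). With no filter, Myh8 (edgeR adjusted p = 0.0704) and Acta1 (0.0596) were not called. The 4 myoblast markers also summed lower, at 7615 to 8892 against 6767 to 7114. Of these, Cdh15 fell (-0.47), a call lost without control replicate 1 or 2 and with no filter (edgeR adjusted p = 0.149). Pax7 (-0.17), without overlap, and Myf5 (-0.24) and Myod1 (-0.07), both with overlap, were not called. Macrophage markers summed to 276.3 to 311.2 against 324.3 to 421.5 over 8 genes, mostly from Mrc1, while Adgre1, Ptprc, Csf1r and Lyz2 had at most 8 counts in any library. Itgam was at 18.5 and 18.2 against 38.2 and 31.4 normalized counts, without overlap. Cd68, at 55.6 and 63.5 against 79.4 and 67.8, did not overlap either, whereas Mrc1 and Cd163 did. None of these 4 macrophage markers was called. T and NK cell markers summed to at most 4.12 normalized counts, and 4 of those 7 genes were at 0. Fibroblast markers summed to 49535 to 51450 against 47176 to 47890, nearly all from Col3a1 and Col1a1. Pdgfra was at 247.3 and 288.4 against 301.9 and 294.8 normalized counts. Dpt and Pi16 had at most 11 counts in any library, and Lum and Thy1 were at 0. Endothelial markers summed to 31.9 to 36.3 against 29.5 to 36.3, and markers of dividing cells to 19378 to 23059 against 21187 to 21536. In bulk RNA, fewer cells of a type and less RNA per cell cannot be told apart.

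Of the 10 genes, 1 rose with EDA-A2 and none fell. Fgf21, a hormone of fasting and mitochondrial stress, was 1.37-fold higher. All 10 passed the low-count filter, as did 15173 genes in all. The test was edgeR's quasi-likelihood test, with p-values adjusted by the Benjamini-Hochberg method over all 15173 genes and a threshold of 0.05, and of all genes tested 2.45% were called higher and 2.13% lower. Under the alternative scaling by total counts, 485 genes were called higher and 194 lower in place of 371 and 323. The other 9 genes were not called, although 4 of the 10 had an unadjusted p under 0.05, as did 15.6% of all genes tested. With control replicate 1 or 2 left out, 1 control library remained, and every call named here was lost in both of those fits. The log2 fold changes of these called genes kept their signs there. That of Fgf21 was 0.42 and 0.49, beside 0.45 with all 4 libraries, and that of Myh3 -0.56 and -0.58, beside -0.57. That of Cxcl1 varied more, at 0.99 and 0.5 beside 0.73. A call lost there does not by itself show that the change rested on 1 control. In 3 of the 10 genes, Fgf21, Csf1 and Il15ra, both EDA-A2 libraries lay above both controls, where 22.8% of all genes tested did so. Mstn was the 1 gene with both below, where 22.2% of all genes did. The median log2 fold change of the 10 was 0.05, against -0.002 over all genes tested.

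**Figure D1:**
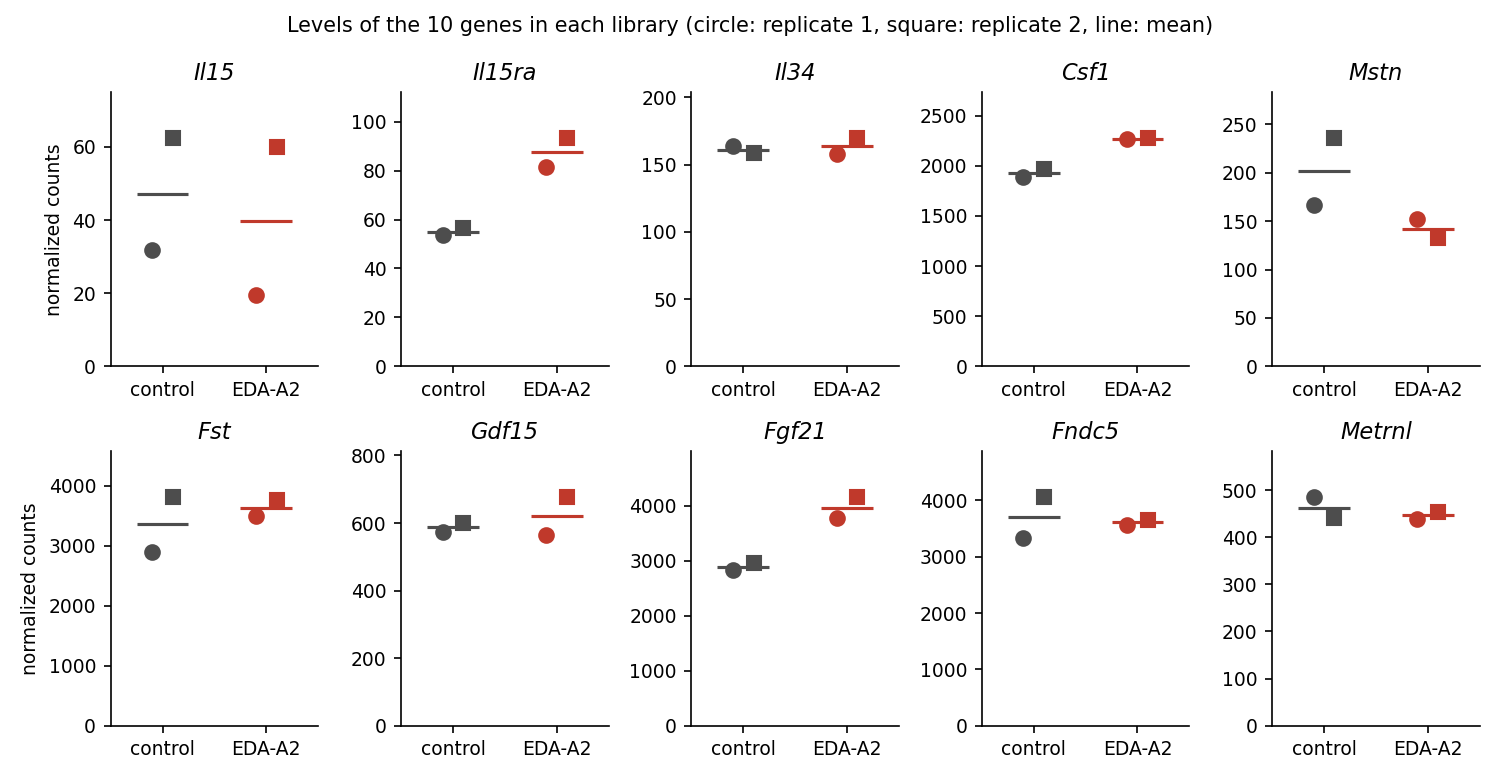
Normalized counts (vertical axes, each from 0) of the 10 genes in the 2 control (grey) and 2 EDA-A2 libraries (red), with replicate 1 as a circle, replicate 2 as a square and a line at the mean. Fgf21, Csf1 and Il15ra have both EDA-A2 libraries above both controls, Mstn has both below, and the other 6 overlap.

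The 10 genes differed widely in level. Levels between genes are compared as RPKM, counts divided by exon length and library size, over the union of all annotated exons, which understates genes with many unused exons. On this scale Fgf21 led with 71.7 ± 2.34 in control and 98.3 ± 6.76 in EDA-A2 myotubes (SD, n = 2 each), above 98.0% of the genes tested. Fndc5 (30.1 ± 4.19 in control) and Fst (24.0 ± 4.64) followed, and their control libraries overlapped, with Fndc5 at 27.1 and 33.0 and Fst at 20.7 and 27.3. Csf1 stood at 11.1 ± 0.316 and Gdf15 at 8.77 ± 0.265, and these did not overlap in either condition. Mstn (2.51 ± 0.609) and Metrnl (2.44 ± 0.170) overlapped in control, and Il34 (1.43 ± 0.0345) lay below both. Il15ra (0.418 ± 0.0155) and Il15 (0.230 ± 0.105) were lowest, Il15 above only 8.94% of the genes tested. In EDA-A2 myotubes the order was the same except that Metrnl (2.35 ± 0.0593) stood above Mstn (1.78 ± 0.170).

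**Figure D2:**
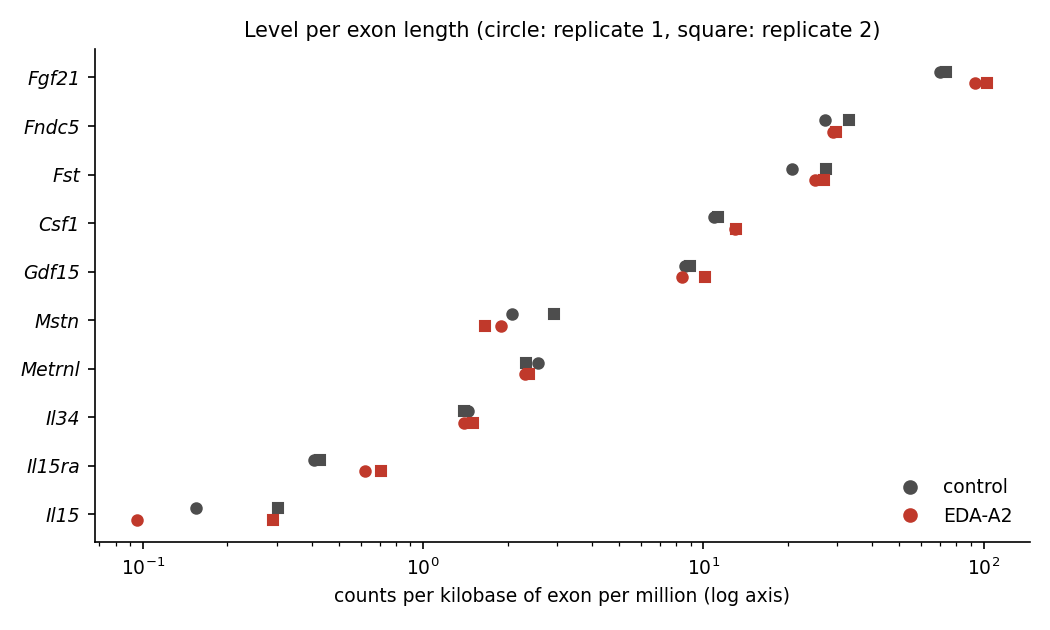
Level of each gene in RPKM, counts per exon length and library size (horizontal log axis), in control (grey) and EDA-A2 (red) libraries, with circles for replicate 1 and squares for replicate 2. Fgf21 lies highest at 70.0 to 103.0 and Il15 lowest at 0.0954 to 0.304.

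Fgf21 (ENSMUSG00000030827, GRCm39 chr7:45263301-45266963, minus strand) was the gene that passed the test. It was measured at 2825 and 2959 normalized counts in the control libraries and at 3771 and 4156 in the EDA-A2 libraries. The lower EDA-A2 library exceeded the higher control, and the replicates within a condition lay closer together than the conditions did. The means were 2892 ± 94.4 and 3963 ± 272.5 (SD, n = 2 each), a log2 fold change of 0.45 (SE 0.07, 95% interval 0.30 to 0.61), and edgeR's quasi-likelihood test gave an adjusted p of 0.00151. By p-value it stood at rank 163 of the 15173 genes. The direction held in all 11 alternatives and the call in 8 of them. With edgeR's quasi-likelihood test the call was lost without the low-count filter (adjusted p = 0.0968), without control replicate 1 (log2 fold change 0.42, adjusted p = 0.29) and without control replicate 2 (0.49, adjusted p = 0.198). An exon of Fut1, a fucosyltransferase gene, overlaps Fgf21 on the opposite strand, and the strand setting of the counting is not given. Fut1 was at 71.1 and 82.7 against 102.9 and 90.4 normalized counts, a gain of 19.8 beside the 1072 gained by Fgf21, or 1.85%. Reads ambiguous between genes entered neither count, so these values cannot show how the overlap affected Fgf21. The called myotube markers given above moved in the opposite direction to Fgf21, and their part in its rise was not tested.

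Fgf21 is a known target of ATF4 in the integrated stress response, through sites of the C/EBP-ATF type in its promoter. The 300 bases before the annotated start of the canonical transcript are therefore shown for the gene that rose, and beside it those of Csf1 and Mstn, the other secreted factors among the 10 genes whose groups did not overlap. These were chosen after their values were seen. All are written 5′ to 3′ on the gene's own strand from the GRCm39 genome with GENCODE starts: Fgf21 at chr7:45264915-45265214 (minus strand, 60.3% G or C), Csf1 at chr3:107667807-107668106 (minus strand, 55.0%) and Mstn at chr1:53100499-53100798 (plus strand, 36.3%). Capitals mark motif matches.
Fgf21: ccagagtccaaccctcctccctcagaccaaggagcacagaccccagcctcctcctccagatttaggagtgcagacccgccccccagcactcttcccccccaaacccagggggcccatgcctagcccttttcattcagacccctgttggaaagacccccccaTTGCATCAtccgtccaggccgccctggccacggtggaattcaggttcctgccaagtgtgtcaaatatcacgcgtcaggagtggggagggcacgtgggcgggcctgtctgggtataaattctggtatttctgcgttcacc
Csf1: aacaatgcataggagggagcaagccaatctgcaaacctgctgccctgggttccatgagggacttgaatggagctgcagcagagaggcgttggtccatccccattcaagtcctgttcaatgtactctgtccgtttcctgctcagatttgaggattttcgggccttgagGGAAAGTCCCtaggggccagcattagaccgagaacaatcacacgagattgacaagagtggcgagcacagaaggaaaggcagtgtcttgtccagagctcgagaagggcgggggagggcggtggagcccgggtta
Mstn: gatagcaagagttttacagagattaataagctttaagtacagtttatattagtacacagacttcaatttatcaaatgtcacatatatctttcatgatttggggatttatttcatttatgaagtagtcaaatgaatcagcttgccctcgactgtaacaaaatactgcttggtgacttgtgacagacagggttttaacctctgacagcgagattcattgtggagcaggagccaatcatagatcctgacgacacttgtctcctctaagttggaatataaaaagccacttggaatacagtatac
The capitals in Fgf21 are a match to the C/EBP-ATF response element (TGATGNAA, here on the other strand) at positions -139 to -132 from the start, which 4.08% of 21626 windows of protein-coding genes held on either strand. The capitals in Csf1 are a match to the NF-kB consensus at -133 to -124, which 8.81% of windows held. The other motifs searched were the interferon-stimulated response element (GAAA, any 2 bases, GAAA, in 4.07% of windows) and the STAT site (TTCNNNGAA, in 9.23%). Mstn held none of these letters, Fst held the NF-kB consensus at -221 to -212, and the interferon element was found in Il15 at -18 to -9 and in Fndc5 at -245 to -236. No matches overlapped one another, and a match is a description of the letters and not a site of binding.

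Of 18 genes of the integrated stress response, the pathway in which eIF2-alpha phosphorylation raises ATF4, none rose and 2 fell. Their median log2 fold change was -0.05 against -0.002 over all genes tested, of which 2.45% were called higher and 2.13% lower. Atf4 itself was at 14187 and 12042 normalized counts in control and 13307 and 13993 in EDA-A2 myotubes, so the groups overlapped (log2 fold change 0.06). Ddit3, the transcription factor CHOP, also overlapped, at 3745 and 3775 against 3422 and 3798 (-0.06). The change of Atf4 was 0.18 without control replicate 1 and -0.05 without control replicate 2. Summed over the 18 genes, the controls stood at 97079 and 81804 normalized counts and the EDA-A2 libraries at 82359 and 86411. Transcript levels do not measure ATF4 protein or eIF2-alpha phosphorylation. The part of this pathway in the rise of Fgf21 was not tested. The genes that fell encode basic leucine zipper transcription factors, as Atf4 does. Atf3 went from 593.5 and 508.2 to 402.9 and 406.9 normalized counts (-0.44, SE 0.11, edgeR quasi-likelihood adjusted p = 0.0296). Atf5 went from 3691 and 3034 to 2484 and 2577 (-0.41, SE 0.09, edgeR quasi-likelihood adjusted p = 0.0111). For both, every EDA-A2 library lay below both controls, as in 22.2% of all genes tested. The values stayed negative in all 11 alternatives, but the call of Atf3 held in only 4 of them. By edgeR's quasi-likelihood test, Atf3 was not called with scaling by total counts (adjusted p = 0.0649), with no filter (0.232), without control replicate 1 (0.301) or 2 (0.19), or without EDA-A2 replicate 1 (0.162) or 2 (0.16), and the DESeq2 Wald test gave 0.0624. Atf5 was called in 8 of 11 and lost with no filter (edgeR quasi-likelihood adjusted p = 0.25), without control replicate 1 (-0.26, 0.30) and without control replicate 2 (-0.54, 0.183).

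Gdf15 (ENSMUSG00000038508, chr8:71082038-71091537, minus strand), the other stress-induced hormone of the set, was not called. It was at 574.9 and 600.0 normalized counts in control and 563.6 and 677.1 in EDA-A2 myotubes. The EDA-A2 libraries lay on either side of the controls. The log2 fold change was 0.08 (SE 0.11, 95% interval -0.15 to 0.30), and edgeR's quasi-likelihood test gave an adjusted p of 0.814. Per kilobase of exon, Fgf21 exceeded Gdf15 8.16- and 8.19-fold in the control libraries and 11.1- and 10.2-fold in the EDA-A2 libraries.

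Of 8 genes for receptors of these hormones and related genes, 6 were tested and none was called. Of all genes tested, 2.45% were called higher and 2.13% lower. The median log2 fold change of the list was -0.22, against -0.002 over all genes tested. Gfral, the GDF15 receptor of the hindbrain, had no count in any library, with an exact Poisson 95% upper limit of 3.69 counts in each. Its partner Ret was low, at 16.5 and 15.1 against 20.6 and 22.6 normalized counts. Klb, which encodes the beta-klotho that FGF21 needs, had 1 count in 1 EDA-A2 library and 0 in the other 3. Fgfr1, its main partner receptor, was abundant, at 5981 and 5952 in control and 5602 and 5522 in EDA-A2 myotubes (log2 fold change -0.10, edgeR quasi-likelihood adjusted p = 0.523).

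Neither macrophage growth factor was called, and Csf1 came nearer to the threshold than Il34. Csf1 (ENSMUSG00000014599, chr3:107648364-107667806, minus strand), which sustains monocytes and macrophages, was measured at 1891 and 1968 normalized counts in control and 2264 and 2280 in EDA-A2 myotubes. The groups did not overlap and the replicates lay close together. The means were 1930 ± 55.0 and 2272 ± 11.2 (SD, n = 2 each), 1.18-fold, with a log2 fold change of 0.24 (SE 0.07, 95% interval 0.09 to 0.39). The unadjusted p was 0.0044 and edgeR's quasi-likelihood adjusted p was 0.0761, so Csf1 was not called. In edgeR's quasi-likelihood test it passed with scaling by total counts (0.29, adjusted p = 0.0358) and with the replicate number as a block (0.24, adjusted p = 0.0308), and in no other of the 11 alternatives.

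Il34 (ENSMUSG00000031750, chr8:111423928-111532584, minus strand), the second ligand of the same receptor, was at 163.8 and 158.3 normalized counts in control and 157.8 and 170.0 in EDA-A2 myotubes. The 4 values overlapped, with a log2 fold change of 0.03 (SE 0.15, 95% interval -0.30 to 0.36, edgeR quasi-likelihood adjusted p = 0.968). Exons of Vac14, a gene of phosphoinositide metabolism, overlap it on the opposite strand, at 587.3 and 511.3 against 663.6 and 631.9 normalized counts. Per kilobase of exon, Csf1 exceeded Il34 7.48- and 8.06-fold in control and 9.30- and 8.69-fold in EDA-A2 libraries. Of 8 genes for receptors and related factors of this family, 3 were tested and none was called. Of all genes tested, 2.45% were called higher and 2.13% lower. Csf1r, the receptor itself, had 3 and 1 counts in control and 8 and 3 in EDA-A2 libraries, too few to test.

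Neither Il15 nor Il15ra was called. Il15ra (ENSMUSG00000023206, chr2:11710101-11739128, plus strand), which binds and presents IL-15, was at 53.6 and 56.5 normalized counts in control and 81.4 and 93.4 in EDA-A2 myotubes. Both EDA-A2 libraries lay above both controls. The means were 55.0 ± 2.05 and 87.4 ± 8.49 (SD, n = 2 each), with a log2 fold change of 0.67 (SE 0.23, 95% interval 0.18 to 1.15). The unadjusted p was 0.0102 and edgeR's quasi-likelihood adjusted p was 0.128, so it was not called. The change was positive in all 11 alternatives (0.56 to 0.76), with adjusted p in edgeR and DESeq2 from 0.0997 to 0.594 and no call. Il15ra was among the thinly counted genes of the set, and a difference of this size was not established at this depth.

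Il15 (ENSMUSG00000031712, chr8:83054226-83129874, minus strand) was the least abundant. It had 31 and 62 counts in control and 20 and 61 in EDA-A2 libraries, or 31.9 and 62.5 against 19.6 and 59.9 normalized counts. In each condition replicate 2 was well above replicate 1, and the conditions overlapped. Exact Poisson 95% intervals on the counts were 21.1 to 44.0 and 47.5 to 79.5 in control and 12.2 to 30.9 and 46.7 to 78.4 in EDA-A2 libraries. Such intervals cover counting error only. The log2 fold change was -0.25 (SE 0.42, 95% interval -1.15 to 0.65), edgeR's quasi-likelihood adjusted p was 0.863, and leaving out 1 library at a time gave values from -1.27 to 0.34. The 95% interval held values of both signs, so neither a rise nor a fall of Il15 was established here.

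Of 10 genes for the other IL-15 receptor chains and downstream signalling, 8 were tested, 2 rose and none fell. Their median log2 fold change was 0.09, and of all genes tested 2.45% were called higher and 2.13% lower. Il2rg, the common gamma chain through which IL-15 and other cytokines signal, went from 117.5 and 101.8 to 231.3 and 207.4 normalized counts, with no overlap (1.0, SE 0.16, edgeR quasi-likelihood adjusted p = 0.0018). Stat5a, a transcription factor activated downstream of these receptors, went from 756.2 and 778.5 to 1369 and 1514 (0.91, SE 0.08, edgeR quasi-likelihood adjusted p = 1.36e-05). Its paralog Stat5b overlapped at 1995 and 1966 against 1873 and 1968 (-0.04). Il2rb, the beta chain that signals with the gamma chain, had 9 and 7 counts in control and 16 and 8 in EDA-A2 libraries and was not tested. Both changes were positive in all 11 alternatives. By edgeR's quasi-likelihood test the call of Stat5a was lost without control replicate 1 (adjusted p = 0.256) or 2 (0.183), and that of Il2rg also with no filter (0.0707), being 0.284 and 0.192 without those controls. The kinases Jak1 (0.05) and Jak3 (0.12) were not called.

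**Figure D3:**
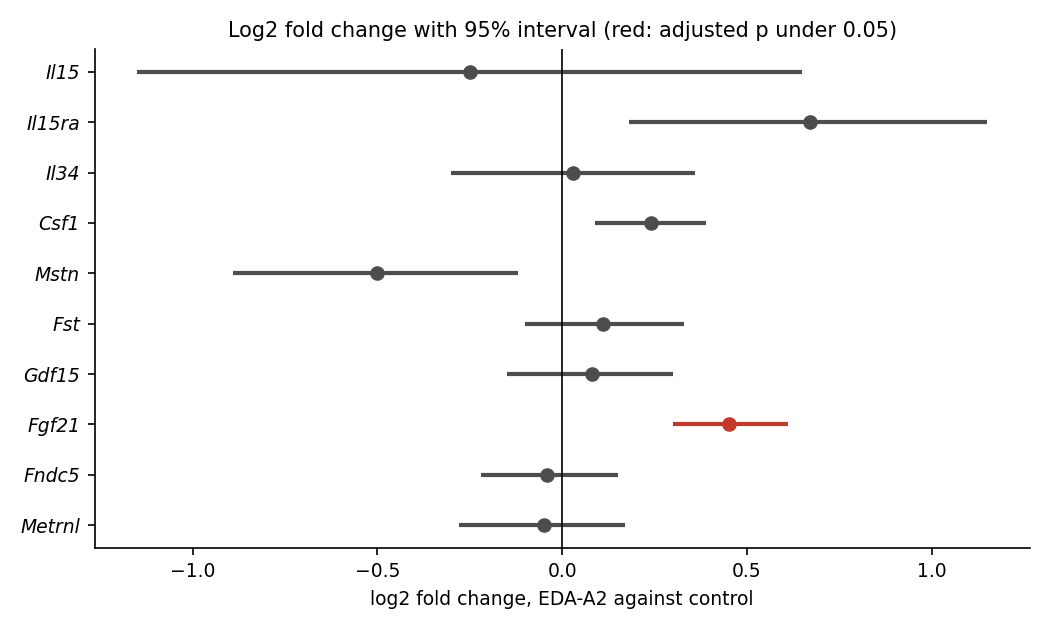
Log2 fold change of EDA-A2 against control (horizontal axis) for the 10 genes, with the estimate as a point, the 95% interval as a bar and genes with adjusted p under 0.05 in red. Fgf21 is the red point at 0.45, the intervals of Il15ra, Csf1 and Mstn lie to 1 side of 0 without passing the adjusted threshold, and the widest interval, -1.15 to 0.65, is that of Il15.

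The regulators of muscle mass gave no call. Mstn (ENSMUSG00000026100, chr1:53100799-53107240, plus strand), the growth inhibitor myostatin, was at 166.9 and 236.0 normalized counts in control and 151.9 and 132.7 in EDA-A2 myotubes. Both EDA-A2 libraries lay below both controls, but the 2 controls stood further apart than control 1 stood from either of them. The means were 201.4 ± 48.8 and 142.3 ± 13.6 (SD, n = 2 each), 0.706-fold, with a log2 fold change of -0.50 (SE 0.18, 95% interval -0.89 to -0.12). The unadjusted p was 0.0144 and edgeR's quasi-likelihood adjusted p was 0.158. The value was negative in all 11 alternatives and ranged from -0.73 without control replicate 1 to -0.23 without control replicate 2, and none called it.

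Fst (ENSMUSG00000021765, chr13:114588731-114595521, minus strand), whose product binds and blocks myostatin and activins, was at 2898 and 3815 normalized counts in control and 3493 and 3766 in EDA-A2 myotubes. The EDA-A2 libraries lay between the controls. The log2 fold change was 0.11 (SE 0.10, 95% interval -0.10 to 0.33, edgeR quasi-likelihood adjusted p = 0.685). Per kilobase of exon, Fst exceeded Mstn 9.96- and 9.28-fold in control and 13.2- and 16.3-fold in EDA-A2 libraries. The ratio was thus higher in both EDA-A2 libraries than in both controls, and it was not tested.

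In the myostatin and activin pathway, 19 of 22 genes were tested, 1 rose and none fell. Their median log2 fold change was -0.03, and of all genes tested 2.45% were called higher and 2.13% lower. The gene that rose was Smad7, an inhibitor of receptor signalling in the transforming growth factor beta family, from 934.5 and 899.5 to 1168 and 1252 normalized counts (0.40, SE 0.08, edgeR quasi-likelihood adjusted p = 0.00977). Its change was positive in all 11 alternatives and was called in 7. By the same edgeR test the call was lost with no filter (adjusted p = 0.139), without EDA-A2 replicate 2 (0.168), without control replicate 1 (0.288) and without control replicate 2 (0.223). Among ligands, Gdf11, the closest paralog of Mstn, had a log2 fold change of -0.10 and Inhba, which encodes an activin subunit, one of -0.03, and neither was called. Nor were the receptors, at 0.01 for Acvr2a, -0.27 for Acvr2b and -0.08 for Acvr1b. Fstl3, a second secreted inhibitor, had a log2 fold change of 0.18 and was not called.

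Fndc5 and Metrnl, linked to exercise and thermogenic fat, showed no difference beyond their spread. Fndc5 (ENSMUSG00000001334, chr4:129030397-129041865, plus strand) was at 3332 and 4060 normalized counts in control and 3555 and 3659 in EDA-A2 myotubes, with both EDA-A2 libraries between the controls. Its log2 fold change was -0.04 (SE 0.08, 95% interval -0.22 to 0.15, edgeR quasi-likelihood adjusted p = 0.907), and it turned to 0.02 with scaling by total counts. Exons of S100pbp overlap Fndc5 on the opposite strand, at 1870 and 1943 against 1892 and 1939 normalized counts. Metrnl (ENSMUSG00000039208, chr11:121592370-121611770, plus strand) was at 485.3 and 439.7 in control and 438.1 and 454.0 in EDA-A2 myotubes, and the groups overlapped. Its log2 fold change was -0.05 (SE 0.11, 95% interval -0.28 to 0.17, edgeR quasi-likelihood adjusted p = 0.889).

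Of 10 related genes, 9 were tested and 1 fell, where 2.13% of all genes tested were called lower. The median log2 fold change of the list was -0.12. Fndc4, the closest paralog of Fndc5, went from 322.5 and 402.3 to 223.5 and 209.3 normalized counts, every EDA-A2 library below both controls (-0.74, SE 0.14, edgeR quasi-likelihood adjusted p = 0.00465). The call of Fndc4 was lost with no filter (edgeR quasi-likelihood adjusted p = 0.13), without control replicate 1 (-0.89, 0.256) and without control replicate 2 (-0.57, 0.212). Ppargc1a, the coactivator PGC-1 alpha that raises Fndc5 in exercised muscle, overlapped at 884.0 and 1196 against 942.0 and 967.0 (-0.12). Metrn, the paralog of Metrnl, was at 414.2 and 433.6 against 335.2 and 342.0, without overlap but not called (-0.32, edgeR quasi-likelihood adjusted p = 0.125). The integrin genes Itgav (0.10) and Itgb5 (-0.13), whose products form a proposed irisin receptor, were not called.

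Among 31 other secreted muscle factors, 28 were tested, 4 rose and 1 fell. Their median log2 fold change was 0.07, and of all genes tested 2.45% were called higher and 2.13% lower. The 4 of this list that rose were chemokines, which attract leukocytes. Cx3cl1 went from 2501 and 2824 to 4553 and 4386 normalized counts (0.75, SE 0.07, edgeR quasi-likelihood adjusted p = 2.66e-05). Ccl5 went from 39.2 and 34.3 to 108.8 and 121.9 (1.65, SE 0.23, edgeR quasi-likelihood adjusted p = 0.000529). Cxcl10, an interferon-induced chemokine, had a log2 fold change of 1.61 (SE 0.23, edgeR quasi-likelihood adjusted p = 0.000724). Cxcl1, a neutrophil attractant named here after its value was seen, had one of 0.73 (SE 0.15, edgeR quasi-likelihood adjusted p = 0.0114). Igf2, a growth factor of developing muscle, fell from 2526 and 2394 to 1827 and 2054 normalized counts (-0.34, SE 0.08, edgeR quasi-likelihood adjusted p = 0.0178). For none of these 5 genes did the conditions overlap. Of all genes tested, 22.8% lay above and 22.2% below without overlap. These 5 were named because they were called, so this adds no support. Igf2 was called in 7 of 11 alternatives, and by edgeR's quasi-likelihood test the call was lost with no filter (adjusted p = 0.223), without EDA-A2 replicate 1 (-0.26, 0.35), without control replicate 1 (0.34) and without control replicate 2 (0.245). With scaling by total counts it stood at 0.0485. Cxcl1 was also called in 7, and lost with no filter (0.298), without EDA-A2 replicate 1 (0.55, adjusted p = 0.0648 by edgeR) and without control replicate 1 (0.291) or 2 (0.346). Cxcl10 was lost with no filter (edgeR quasi-likelihood adjusted p = 0.0903) and, like Ccl5 and Cx3cl1, without either control library.

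**Figure D4:**
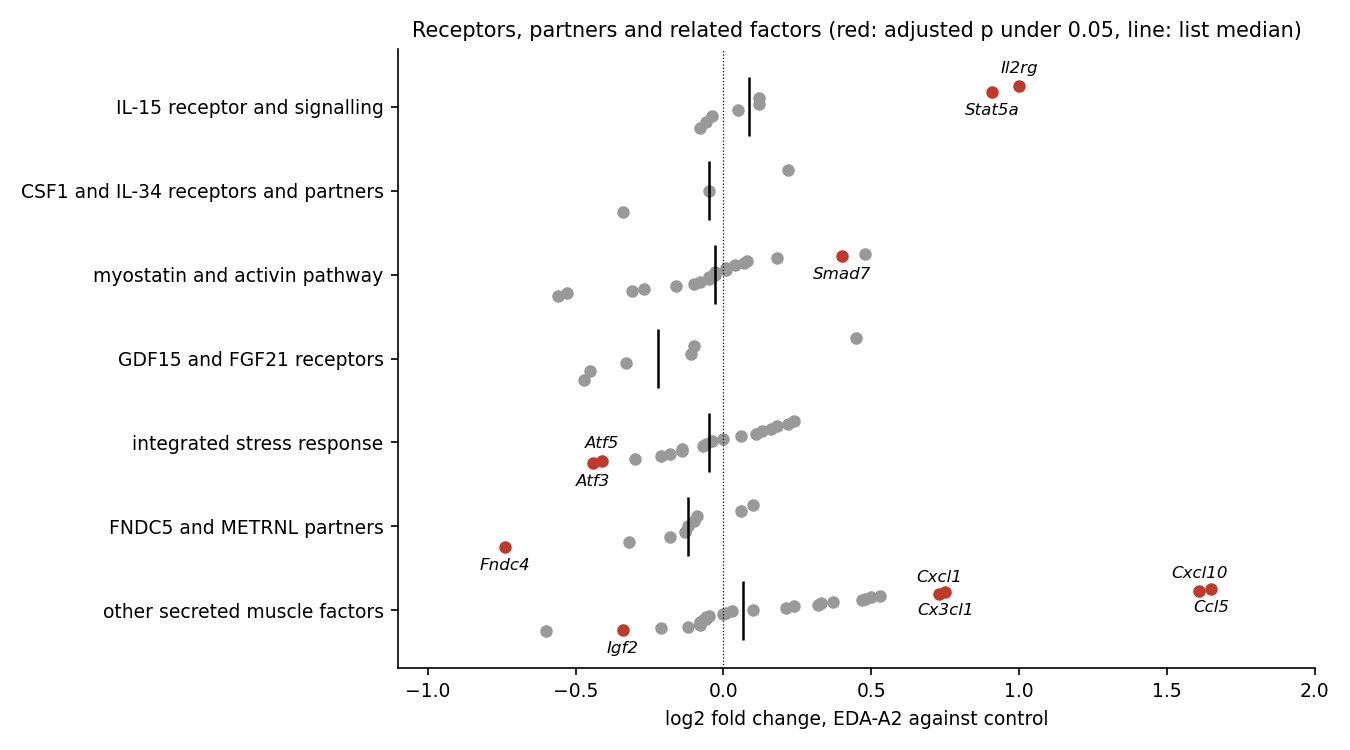
Log2 fold change of EDA-A2 against control (horizontal axis) for the tested genes of 7 lists of receptors, partners and related factors, each gene a point, with genes of adjusted p under 0.05 in red and named and each list's median as a line. Medians lie from -0.22 to 0.09, and the points that lie farthest out are Ccl5 and Cxcl10 at 1.65 and 1.61 and, on the other side, Fndc4 at -0.74.

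The direction of a change depended on single libraries for the genes whose groups overlapped. Leaving out 1 library at a time, the log2 fold change of Il34 ran from -0.03 to 0.08, that of Fst from -0.07 to 0.33, that of Gdf15 from -0.06 to 0.21, that of Fndc5 from -0.17 to 0.12 and that of Metrnl from -0.12 to 0.02. None of these was called in any such fit. For Fgf21 the same range was 0.38 to 0.52 and for Csf1 0.21 to 0.27, so both stayed above 0.

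**Figure D5:**
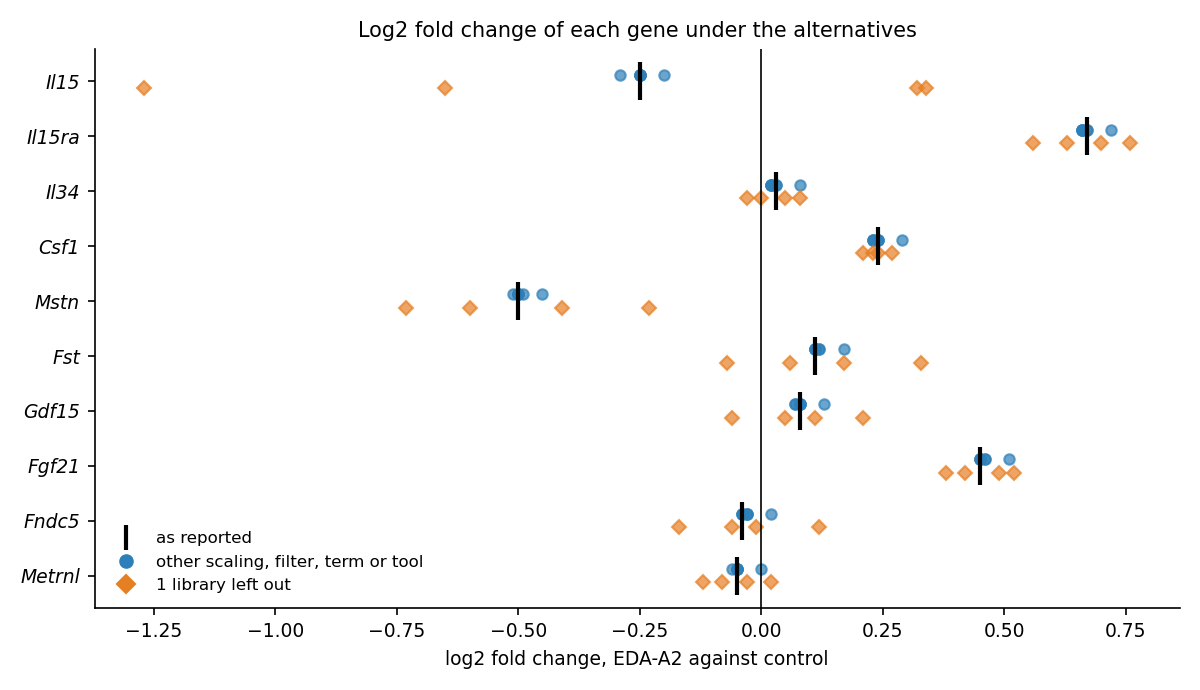
Log2 fold change of each of the 10 genes (horizontal axis) as reported (black bar), under other scalings, filters, terms or tools (blue circles) and with 1 library left out (orange diamonds). Fgf21, Csf1 and Il15ra stay above 0 and Mstn below 0 throughout, while Il15 runs from -1.27 to 0.34.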

How the data were processed

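RNA-seq of 4 libraries of mouse primary myotubes (2 control, 2 EDA-A2) was analysed. According to the submitters' processing notes and the paper's methods, reads were checked with FastQC 0.11.9 and MultiQC 1.12, trimmed with Trim Galore 0.6.5, mapped to GRCm39 with STAR 2.7.3a and counted per gene with HTSeq 0.11.1 from stranded mRNA libraries. The annotation release and strand setting are not given in the sources used here. The files the authors deposited hold unnormalized counts for each Ensembl gene, with every library in a table of its own. Reads that HTSeq assigned to no gene entered neither library sizes nor tests. Of read pairs, 6.68% to 7.40% matched no feature used for counting, 0.946% to 0.986% were ambiguous and 4.56% to 4.76% not uniquely mapped. Depth was 29444155 to 29746863 counts on genes, at which genes with few counts, such as Il15, carry wide counting intervals. GENCODE gave symbols for 52610 of 53647 genes, and in it exons of Il15, Il34, Csf1, Fst, Gdf15 and Fndc5 also overlap non-coding genes.

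Counts were tested in R 4.3.3 with edgeR 4.0.16 (limma 3.58.1): TMM factors, filterByExpr (minimum count 10, total 15), and glmQLFTest after glmQLFit on condition alone, with Benjamini-Hochberg adjustment over all genes tested at 0.05. The script was tested on simulated data first. Results were recomputed with scaling by total counts, upper quartiles or DESeq2 size factors, no filter, at least 10 counts in every library, the replicate number as a block, leaving out each library, and DESeq2 1.42.0. All 10 genes are named whatever their value. From each list of receptors, partners and markers, the main receptors and partners are named, and up to 3 called genes per direction with the smallest p. The genes and lists were chosen with earlier results of these data known, so nothing here is independent support for them, and no list was tested as a set.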

Additional observations from a re-analysis of the deposited data

How the results depend on the processing

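Fits with DESeq2 size factors, upper quartile factors, at least 10 counts in every library and the DESeq2 Wald test moved no count of called genes by more than 1.5 times. Over all genes (371 higher, 323 lower), scaling by total counts gave 485 higher and 194 lower, no filter gave 64 and 22 of 25545 genes, and the replicate block gave 537 and 529. Leaving out 1 library gave 0 to 238 higher and 0 to 170 lower, with 0 in both directions without control replicate 1 or 2, where edgeR still gave 1062 higher and 1117 lower, or 1245 and 1204, at an unadjusted p under 0.05. In these fits the lone library is assumed to vary like the others. Of the 10 genes, 1 was called higher as reported, 2 with total counts, 0 with no filter, 2 with the replicate block (Csf1 added) and 0 to 1 with a library left out. None was called lower in any fit. In the 7 pathway lists, 7 genes were called higher and 4 lower, against 3 and 0 with no filter, 12 and 5 with the replicate block, and 0 to 6 and 0 to 3 with a library left out. The libraries share only replicate numbers: deviations of same-numbered libraries correlated at 0.0575 over 15173 genes, so the block is not read as pairing. Il15, Il34, Fst, Gdf15, Fndc5 and Metrnl, none of them called, changed sign with some library left out. The smallest change called over all genes was 0.24 on the log2 scale and the median SE was 0.10, while changes as large as that of Il15ra (0.67) were not called, and no detection limit by size was tested.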

Other observations

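Il15 differed more between replicates than between conditions, in the same direction in both conditions: replicate 2 exceeded replicate 1 by 0.96 on the log2 scale in control and by 1.59 in EDA-A2 myotubes (pseudocount 0.5 normalized counts). Of 2051 tested genes within 2-fold of its mean count, Il15 included, 103 lay at least as far apart as Il15 in control and 4 in EDA-A2 myotubes. Il15 was the 1 gene of the 2051 that did so in both conditions in the same direction. Both cut-offs were the replicate differences of Il15 itself, so it met them by construction. This count therefore does not measure how unusual Il15 is. Il15 was looked at in this way after its values were seen, and the cause was not tested.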
